A study of Homo sapiens with 2 samples.

Results

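The genes described here are 5 growth factor receptors, EGFR, ERBB2, ERBB3, MET and AXL, and 5 ligands of EGFR, namely AREG, EREG, TGFA, HBEGF and BTC. They were read for where LSD1 (KDM1A), a demethylase of histone H3 lysine 4, was bound around them in PC-3M-luc cells, luciferase-marked human prostate carcinoma cells that descend, through the metastatic variant PC-3M, from the androgen-independent line PC-3. The ChIP arm is 1 library made with an Abcam antibody to LSD1, and the background arm is 1 input library; both come from cells of genotype "Control" in the labels, kept in serum-containing medium with no treatment named. A deposited list of 20110 peaks was taken as the ChIP library set against the input, which the labels do not spell out. Peaks were assigned to a gene when any base fell in the gene (all transcripts of GENCODE 44 on hg19) or in the 20 kb on either side, an assignment that used positions and not scores. The genes were chosen with earlier results of these data known. By this rule 22 of the 20110 peaks belonged to the 10 genes, out of 20163 protein-coding genes.

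Each arm being 1 library, the values were not checked by a replicate and carry no p-value. Shares have exact 95% binomial intervals (Clopper-Pearson), which cover only counting error. The sources used here give no read numbers, which leaves the depth behind each peak unknown. A gene with no peak had none in the authors' list, which is not the same as no binding. A peak list holds no expression values, so the identity of the line was not checked against marker genes.

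EGFR, ERBB2 and ERBB3 are receptor tyrosine kinases of the ERBB family, which work as dimers at the cell surface. ERBB2 has no known ligand of its own, and ERBB3 has little kinase activity and signals through its partners. AREG (amphiregulin), EREG (epiregulin), TGFA (transforming growth factor alpha), HBEGF (heparin-binding EGF-like growth factor) and BTC (betacellulin) are made as membrane-anchored precursors that proteases such as ADAM17 release. MET is the receptor of hepatocyte growth factor and AXL the receptor of GAS6, and both are studied for invasion and for resistance to EGFR inhibitors.

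LSD1 peaks lay over the canonical start sites of 7 of the 10 genes, against 53.5% of all protein-coding genes. The exceptions were AREG, EREG and AXL. The letters before some of these start sites are given first. Each line gives the 200 bases that end just before the canonical transcription start site (TSS) on hg19, on the strand of the gene, and capitals mark the words searched: GGGCGG of SP/KLF factors, the TATA box word TATAAA, the cyclic AMP response element TGACGTCA, AP-1 (TGANTCA), ETS (CCGGAAG) and the E-box CACGTG, each on either strand. EGFR, MET and HBEGF are shown as 3 examples of the 7 start sites under a peak, and EREG, AREG and AXL as all 3 start sites without one.
EGFR, chr7:55086510-55086709, plus strand: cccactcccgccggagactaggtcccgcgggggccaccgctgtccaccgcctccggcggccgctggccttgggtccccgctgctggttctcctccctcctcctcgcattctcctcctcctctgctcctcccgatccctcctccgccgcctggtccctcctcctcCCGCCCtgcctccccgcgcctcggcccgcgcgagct
MET, chr7:116312050-116312249, plus strand: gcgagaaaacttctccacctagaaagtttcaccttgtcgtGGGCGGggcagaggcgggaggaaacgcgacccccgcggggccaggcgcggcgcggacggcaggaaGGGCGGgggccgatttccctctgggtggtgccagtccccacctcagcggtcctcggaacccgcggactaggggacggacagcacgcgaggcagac
HBEGF, chr5:139726189-139726388, minus strand: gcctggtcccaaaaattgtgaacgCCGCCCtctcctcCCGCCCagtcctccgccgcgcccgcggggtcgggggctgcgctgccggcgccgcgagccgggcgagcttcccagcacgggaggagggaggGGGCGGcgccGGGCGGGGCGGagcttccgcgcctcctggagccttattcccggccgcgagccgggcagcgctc
EREG, chr4:75230662-75230861, plus strand: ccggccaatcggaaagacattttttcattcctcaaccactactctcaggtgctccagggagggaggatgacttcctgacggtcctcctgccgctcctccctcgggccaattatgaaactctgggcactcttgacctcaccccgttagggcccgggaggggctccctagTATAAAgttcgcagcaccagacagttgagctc
AREG, chr4:75310653-75310852, plus strand: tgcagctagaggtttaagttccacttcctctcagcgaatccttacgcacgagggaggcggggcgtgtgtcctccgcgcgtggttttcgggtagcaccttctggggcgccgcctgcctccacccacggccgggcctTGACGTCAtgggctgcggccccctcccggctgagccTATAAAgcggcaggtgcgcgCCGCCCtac
AXL, chr19:41724928-41725127, plus strand: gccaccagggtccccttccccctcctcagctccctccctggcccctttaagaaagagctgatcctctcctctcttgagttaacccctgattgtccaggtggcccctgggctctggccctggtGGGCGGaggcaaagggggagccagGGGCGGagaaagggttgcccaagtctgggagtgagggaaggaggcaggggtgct

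In these windows the SP/KLF word occurred 1 time before EGFR, 2 times before MET and 5 times before HBEGF, with no TATA box word in any of those 3. The examples do not stand for all start sites under a peak. Of those not printed, ERBB2, ERBB3 and BTC had no SP/KLF word in the 200 bases and TGFA had it. EREG carried a TATA box word that began at -32 from the TSS. AREG carried one at -29 together with a cyclic AMP response element at -65 and 1 SP/KLF word. AXL had 2 SP/KLF words, no TATA box word and 2 CpG dinucleotides in the whole window, against 21 in EGFR, 22 in MET and 29 in HBEGF. CpG number did not separate the start sites, since EREG with 8 had no peak, and ERBB2 with 8 and BTC with 7 lay under one. AREG had 20 and no peak. An absent peak at AREG cannot be told apart from reads that could not be placed. In the 2000 bp around its TSS, 3.95% of 32-base words occurred once in the reference. Wider windows of 300 bases ran from 250 before each TSS. There a TATA box word was found at 2 of the 10 genes, EREG and AREG, both among the 3 without a start site peak. Over all protein-coding genes it was found in 4.51% of windows whose TSS lay under a peak and in 15.9% of the others. The SP/KLF word was found in these windows at 5 of the 7 genes with a start site peak and at AREG and AXL, against 77.1% of all windows with a peak and 42.3% without. The cyclic AMP response element was found at AREG alone of the 10, against 2.69% of all protein-coding genes. A word marks sequence and not a bound factor.

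At least 1 peak was assigned to 9 of the 10 genes, AREG being the exception. The same rule gave a peak to 70.8% of all protein-coding genes (interval 70.2 to 71.4), so 9 of 10 is not far from the background. A peak covered the canonical TSS of 7 of the 10 (70%, interval 34.8 to 93.3), against 53.5% of all protein-coding genes, a share that lies inside the interval of the 10. With any annotated TSS of the gene counted, AXL joined and the count was 8 of 10, against 56.8% of all genes. The receptors had a start site peak at 4 of 5 genes and the ligands at 3 of 5. The median number of peaks was 2 per gene among the 10 and 1 among all protein-coding genes, and the median share of the locus under peaks was 2.7% among the 10 and 2.4% among all.

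**Figure D1:**
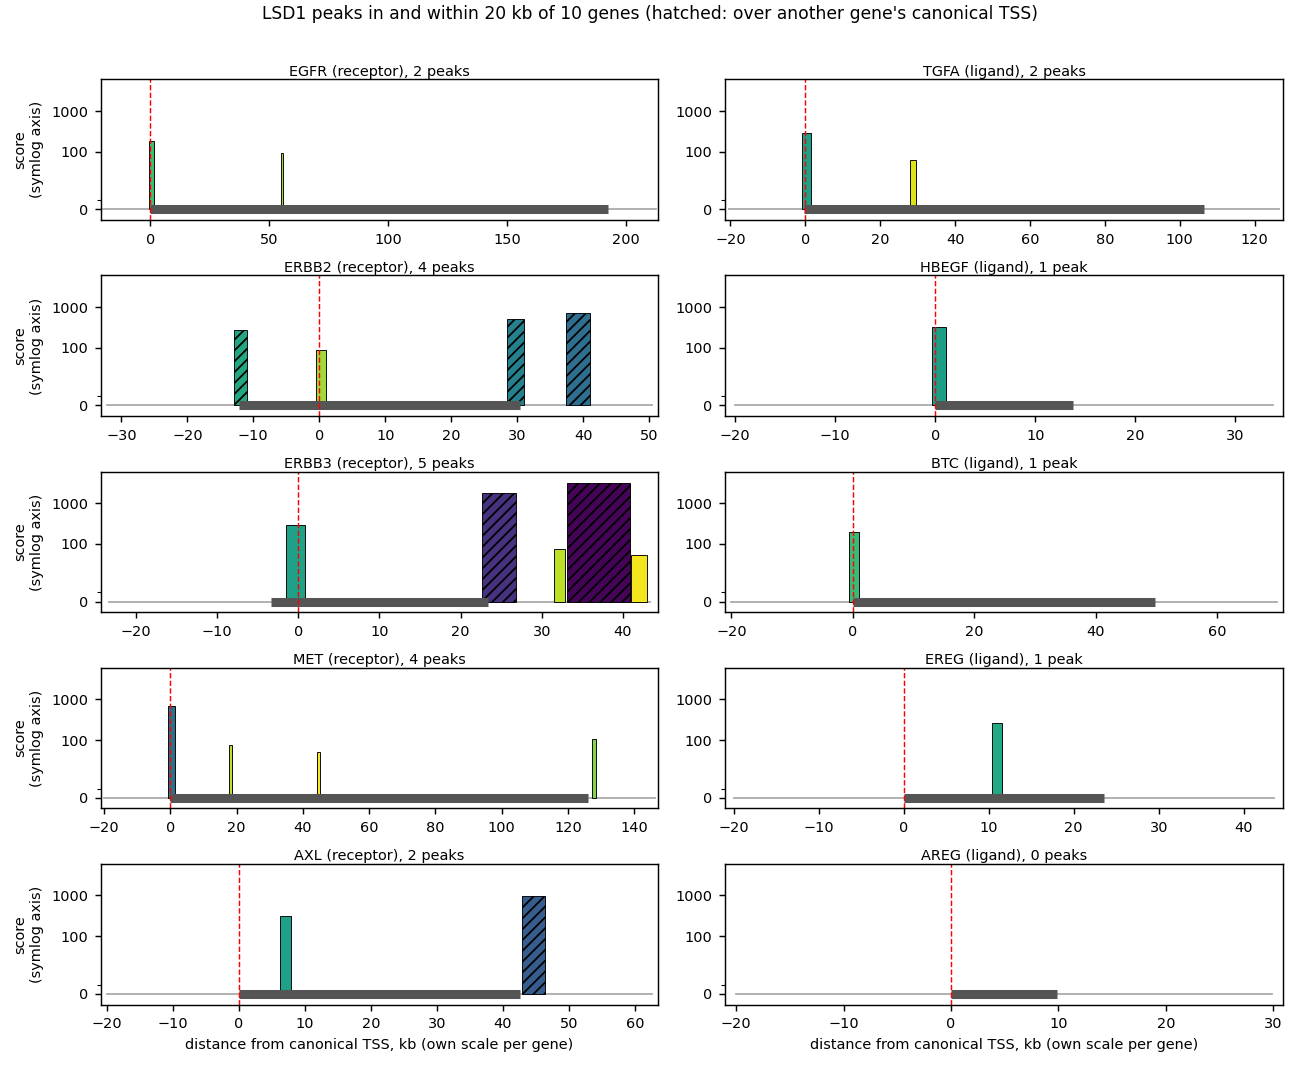
LSD1 peaks in and within 20 kb of the 10 genes, by distance from the canonical TSS in kb along the strand of the gene (dashed line); bars span the peak's width (narrow ones drawn at a minimum width), their height and colour show the authors' score on an axis that is linear up to 50 and logarithmic above, thick grey lines are the genes and hatching marks peaks over the canonical TSS of another gene. Peaks sit on the dashed line in 7 panels, EREG has its 1 peak and AXL the first of its 2 inside the gene, AREG has none, and the tallest bars at ERBB2, ERBB3 and AXL are hatched.

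MET had the highest-scoring start site peak of the 10 genes. Scores are the authors' own, one value for each peak, and serve here only to rank and describe peaks within the list. The peak over the MET TSS (chromosome 7, 116311614 to 116313580) was 1967 bp wide with a score of 682.66, above 80.8% of the list. It ran from 636 bp before the TSS to 1330 bp after it. The other 3 MET peaks were low and narrow. They lay in intron 1 with a score of 75.02, in intron 2 with 51.25, and 1127 bp beyond the 3′ end of the gene with 107.66, at widths of 861, 806 and 1114 bp. The peak in intron 2 scored above only 1.5% of the list.

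EGFR, a much longer gene, had 2 peaks. The first (chromosome 7, 55086261 to 55088148) covered the canonical TSS and 7 of the 12 annotated start sites, with a score of 183.58 that exceeded 47% of the list. The second (55141504 to 55142353) was 850 bp wide, scored 91.9 and lay deep in intron 1, 54794 bp or more from the TSS. Its middle 200 bases hold an AP-1 word, in capitals below, a word found in 5.89% of all peak centres and in 9.47% of those away from canonical start sites.
EGFR intron 1, chr7:55141829-55142028, plus strand: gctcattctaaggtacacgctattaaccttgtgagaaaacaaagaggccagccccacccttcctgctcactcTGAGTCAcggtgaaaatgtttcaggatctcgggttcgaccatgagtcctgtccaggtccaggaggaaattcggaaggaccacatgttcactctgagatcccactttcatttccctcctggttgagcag
Among the 1854 protein-coding genes within 1.5 times the length of EGFR on either side, the median was 1 peak.

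Of the peaks assigned to ERBB2 and ERBB3, 3 of 4 at ERBB2 and 2 of 5 at ERBB3 covered the canonical TSS of another gene. In the whole list 9416 of the 20110 peaks lay over a canonical TSS. The share over a neighbouring gene was not computed for the loci of all genes. ERBB2, an oncogene that is amplified in part of breast cancers, had 4 peaks. The peak over its canonical TSS (chromosome 17, 37855765 to 37857356) had a score of 89.91, the lowest of the 7 start site peaks. Another peak (37843366 to 37845379, score 268.27) covered the upstream start sites of ERBB2 together with the TSS of PGAP3, a gene of GPI-anchor remodelling. The higher-scoring ERBB2 peaks were at the TSS of MIEN1, a gene named for migration and invasion (37884758 to 37887365, score 521.99), and at the TSS of GRB7, an adaptor that binds ERBB2 (37893715 to 37897316, score 725.01). When peaks over the canonical TSS of another gene were left out, ERBB2 had 1 peak and 1.93% of its locus under peaks, against 11.9% with them. This setting was chosen after seeing the data.

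ERBB3 had the largest number of peaks, 5, and the largest share of its locus under peaks, 26.1%. The peak at its own TSS (chromosome 12, 56472442 to 56474746) was 2305 bp wide, had a score of 298.89 and covered 12 of its 32 annotated start sites. The peak at the 3′ end of the gene (56496531 to 56500783, score 1768.15) covered the TSS of PA2G4, whose product is known as ERBB3-binding protein. Next came a peak of 7682 bp with a score of 3100 (56507111 to 56514792), which covered the TSS of RPL41, a protein of the large ribosomal subunit, and of ZC3H10. Exactly 3100 was the score of 206 peaks in the list. The narrower peaks on either side of it scored 75.91 and 53.88, and only 69% of the 32-base words under the peak with 75.91 occurred once in the reference. Without the peaks over start sites of other genes ERBB3 had 3 peaks, 8.26% of its locus under peaks and a highest score of 299. Those 3 still include the narrower peaks of 75.91 and 53.88 that adjoin the peak of 7682 bp. With peaks within 1 kb of each other merged, ERBB3 had 3 peaks against 5.

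AXL had no peak over its canonical TSS and 1 inside the gene. That peak (chromosome 19, 41731329 to 41733039) was 1711 bp wide with a score of 306.68, began 6201 bp after the canonical TSS, had its midpoint in intron 4 of 19 and covered the start of a shorter annotated transcript. Its middle 200 bases had a GC content of 78% and 22 CpG dinucleotides, and they hold an AP-1 word, an E-box and 3 SP/KLF words, the last 2 overlapping, all in capitals.
AXL intron 4, chr19:41732085-41732284, plus strand: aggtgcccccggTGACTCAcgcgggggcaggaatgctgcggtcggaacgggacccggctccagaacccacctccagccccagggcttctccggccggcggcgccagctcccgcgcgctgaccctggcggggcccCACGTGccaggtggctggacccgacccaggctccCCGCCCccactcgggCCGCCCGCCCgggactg
By contrast, the 1000 bp around the canonical TSS held 65.8% GC, with a ratio of observed to expected CpG of 0.318, the lowest of the 10 genes. The second AXL peak (41767965 to 41771583, score 958.09) began 294 bp beyond the 3′ end of the gene and covered the TSS of HNRNPUL1, a nuclear RNA-binding protein.

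Of the ligands, HBEGF, TGFA and BTC had a peak over the canonical TSS. HBEGF had 1 peak (chromosome 5, 139725122 to 139726530), 1409 bp wide with a score of 320.5, from 342 bp before its TSS to 1066 bp after it. TGFA had a start site peak of 2448 bp (chromosome 2, 70779467 to 70781914, score 296.48), the widest of the 7, which covered 6 of its 7 annotated start sites. A second TGFA peak, with a score of 62.09, lay in intron 1. BTC had 1 peak (chromosome 4, 75718710 to 75720389, score 192.89) over its first exon. No peak of the ligand genes covered the TSS of another protein-coding gene.

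EREG and AREG lie next to each other on chromosome 4 and neither had a start site peak. The single EREG peak (75241188 to 75242397) was 1210 bp wide, had a score of 263 and lay in intron 1, 10326 bp or more after the TSS. Its middle 200 bases had a GC content of 42% and none of the 6 words searched, and they are shown because this is the single peak in the gene.
EREG intron 1, chr4:75241693-75241892, plus strand: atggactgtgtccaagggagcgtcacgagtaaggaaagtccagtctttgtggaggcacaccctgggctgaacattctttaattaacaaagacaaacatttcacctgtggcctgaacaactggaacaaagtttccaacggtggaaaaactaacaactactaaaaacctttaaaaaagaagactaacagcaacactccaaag
AREG (75310853 to 75320722) was the shortest of the 10 genes. The nearest peak edges were 68456 bp before its TSS, at the EREG peak, and 86655 bp after it, at a peak with a score of 114.53. Over the 545547 bp from EPGN, the gene of another EGFR ligand, to BTC the list held 3 peaks, the one in EREG, the one after AREG and the one over the BTC TSS.

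The AREG locus is present as a near-identical copy, AREGB, in hg19 (chromosome 4, 75480629 to 75490486). Of the 32-base words that start in AREG, 4% occurred once in the reference, and 95.7% occurred in AREGB. In the 2000 bp around the AREG TSS the share of words found once was 3.95%. The other 9 genes ranged from 80.5% in AXL to 96.8% in EGFR over the gene, and from 90.1% to 100% in the 2000 bp around the TSS. No peak was assigned to AREGB either. The sources used here do not give how reads that map to several places were treated, and an absent peak at AREG cannot be told apart from reads that could not be placed. EREG differs in this, since 100% of the words around its TSS occurred once.

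The start site peaks of the 10 genes were moderate in score. The 7 peaks scored from 89.91 to 682.66 with a median of 296, while the 9416 peaks over a canonical TSS of any protein-coding gene had a median of 450 and quartiles of 225 and 818. MET alone of the 7 exceeded that median. Widths were closer, with a median of 1888 bp among the 7 and 1932 bp among the 9416. The 6 peaks over canonical start sites of neighbouring genes were higher, from 268.27 to 3100, and wider, with a median of 3610 bp. The 9 remaining peaks had a median score of 75.9 and a median width of 1210 bp, and 6 of them scored below 100, against 30.2% of the whole list. Over all peaks away from canonical start sites the median score was 100 and the median width 1389 bp.

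**Figure D2:**
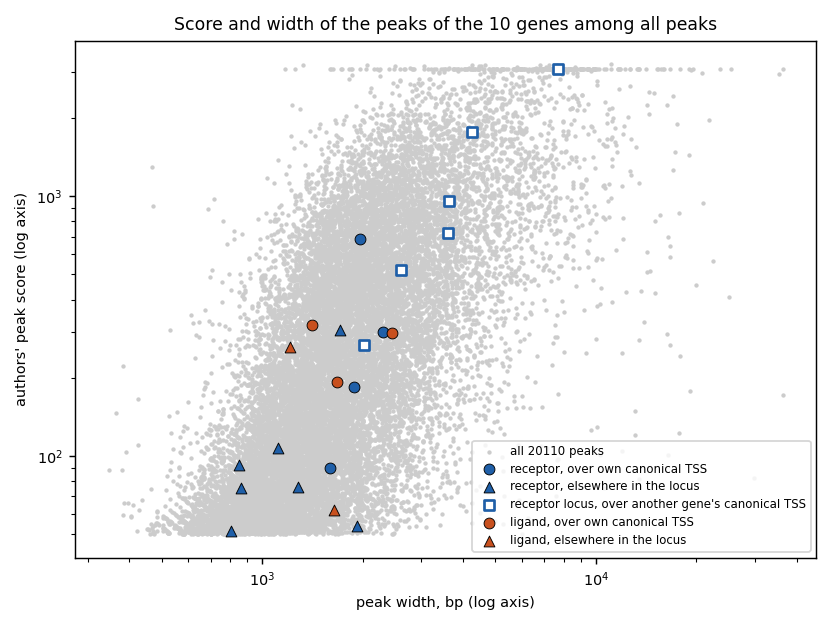
Authors' score against width in bp, both on log axes, for the 22 peaks of the 10 genes (coloured, by role and position) and all 20110 peaks (grey). The receptor loci hold the 6 open squares, peaks over start sites of other genes, which reach the band at 3100, while circles over the genes' own start sites stay between 89.91 and 682.66.

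Pooled over the loci of each role, peaks were denser at the receptors than at the ligands, though not at every receptor. EGFR had 2 peaks in a locus of 232612 bp, whereas ERBB2 had 4 in 82513 bp and ERBB3 had 5 in 66707 bp. Among the ligands TGFA had 2 in 146910 bp and AREG had 0 in 49870 bp. The 5 receptor loci, 631 kb with their flanks, held 17 peaks, or 2.7 per 100 kb, and the 5 ligand loci, 404 kb, held 5 peaks, or 1.24 per 100 kb, against 1.87 per 100 kb over the loci of all protein-coding genes. All 6 peaks over canonical start sites of other genes were in receptor loci, and without them the receptor loci held 11 peaks, or 1.74 per 100 kb. The 1.87 over all protein-coding genes still counts such peaks, so it is not a like measure for the 1.74. The ligand loci include AREG, where 4% of the 32-base words that start in the gene occurred once in the reference. Peak number also varied with gene length, and longer genes did not hold more peaks. Genes of like length to HBEGF (13761 bp) had a median of 2 peaks, and those of like length to MET (126182 bp) a median of 1. ERBB3 had more peaks than 84.3% of the 4240 genes of like length (within 1.5 times), MET more than 85.8% of 2706 and ERBB2 more than 80% of 4280. EREG, HBEGF and BTC, each with 1 peak, had more than 24.3%, 26.4% and 22.7% of theirs. Of the 3339 genes of like length to AREG, 70.3% had at least 1 peak.

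**Figure D3:**
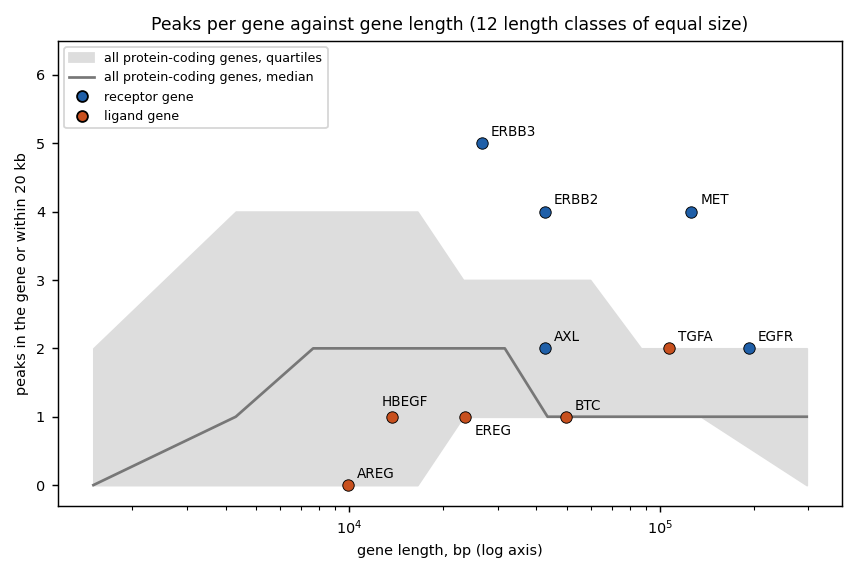
Number of peaks in each of the 10 genes or within 20 kb (points) against gene length in bp on a log axis, with the median (line) and quartiles (band) of all protein-coding genes in 12 length classes. ERBB3, ERBB2 and MET lie above the band, and the other 7 genes lie within it or on its edge.

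Start site peaks were set beside the CpG content of the promoters. A promoter was counted as CpG-rich when its 1000 bp around the canonical TSS held over 55% GC with observed over expected CpG above 0.65. Of the 6 CpG-rich promoters among the 10 genes 5 lay under a peak, against 75.7% of all CpG-rich promoters, and AREG was the one without. Of the other 4 promoters 2 lay under a peak, ERBB2 and BTC, against 25.4% of all such promoters, and EREG and AXL did not. At their midpoints, the 7 start site peaks held a median of 70.5% GC with a CpG ratio of 0.776, beside 67% and 0.808 over all 9416 start site peaks. The 9 peaks that covered no canonical TSS had medians of 50.5% and 0.244, against 53.5% and 0.278 over all peaks away from canonical start sites. The AP-1 word occurred at the centre of 2 of those 9 peaks, at EGFR and AXL, against 9.47% of all peaks away from canonical start sites, and of none of the 7, against 1.82% of all start site peaks. Over the 22 peaks its count moved with the setting, to 5 with 500 bases at the midpoint and to 1 with a score of at least 100, against 2 as reported.

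**Figure D4:**
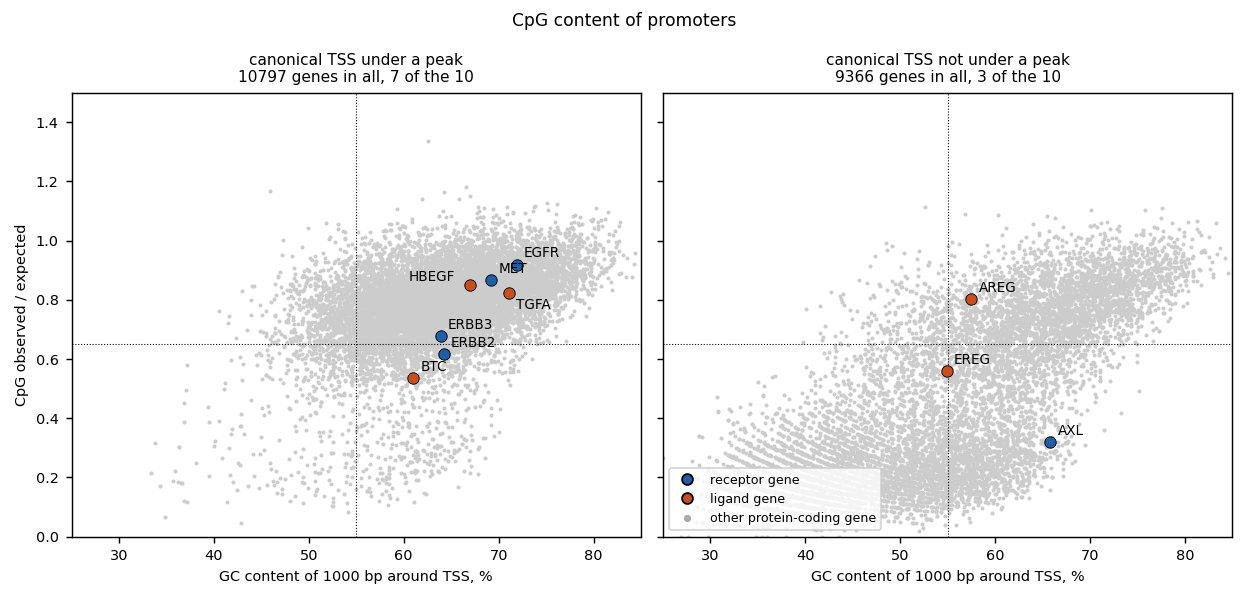
CpG observed-to-expected ratio against GC content (%) in the 1000 bp around the canonical TSS, for genes with a peak over it (left) and without (right); coloured points are the 10 genes, grey points all other protein-coding genes, and dotted lines the limits of the CpG-rich class. AXL at 0.318 and EREG at 0.558 lie below the ratio limit on the right, and AREG at 0.803 lies above it.

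Other genes of the same pathways were read from lists by family and role. Among the rest of the ERBB family, 1 of 7 genes had a peak over the canonical TSS (interval 0.361 to 57.9), the ligand gene NRG2 (score 734.17). The share over all protein-coding genes, 53.5%, lies inside that interval. ERBB4, EGF, EPGN, NRG1, NRG3 and NRG4 had no peak in the gene or within 20 kb. Of these 6, EGF and EPGN encode ligands of EGFR and the NRG genes encode neuregulins, ligands of ERBB4 and, for NRG1, also of ERBB3. In the MET and AXL families 5 of 7 genes had a start site peak, against 53.5% of all protein-coding genes. The exact 95% binomial interval of 5 of 7 includes that share. MST1R, the MET-like receptor RON, scored 2715.14, MERTK, an AXL-like receptor, 1327.06, and MST1, the ligand of RON, 162.34. TYRO3, the third AXL-like receptor, had 79.04. HGF, the ligand of MET, had no peak in or near the gene, and GAS6, the ligand of AXL, had 1 with a score of 149.42 that did not cover its TSS. With a score of at least 100 this family count was 3 of 7, against 49.6% of all protein-coding genes.

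Other growth factor receptors were mostly without a start site peak, 2 of 16 genes (12.5%, interval 1.55 to 38.3), against 53.5% of all protein-coding genes. Of the 16 promoters 14 were CpG-rich, and 2 of the 14 lay under a peak, against 75.7% of all CpG-rich promoters. The exceptions were INSR, the insulin receptor (642.27), and FGFR1, a fibroblast growth factor receptor (128.67). FGFR2, FGFR4, PDGFRA, KIT, KDR, FLT1, FLT4, NTRK2 and NTRK3 had no peak in the gene or within 20 kb. By contrast, all 23 genes of adaptors and kinases that act below the receptors had a start site peak (interval 85.2 to 100), against 53.5% of all protein-coding genes. All 21 CpG-rich promoters among them lay under a peak, against 75.7% of all such promoters. Among the higher scores were those at HRAS (1387.45), SRC (1255.49) and SOS1 (1052.91), which encode a small GTPase, a tyrosine kinase and an exchange factor for RAS. With the peak midpoint required within 1 kb of the canonical TSS the count was 21 of 23.

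Genes of ligand shedding and receptor turnover had a start site peak at 8 of 9 (interval 51.8 to 99.7). The share over all protein-coding genes, 53.5%, lies inside that interval. All 9 promoters were CpG-rich, a class in which 75.7% of all promoters lay under a peak. ERRFI1, a feedback inhibitor that binds EGFR, lay under a peak of 25320 bp with a score of 3100. ADAM17, the main protease that sheds AREG, EREG, TGFA and HBEGF, had 1031.93, CBLB, a ubiquitin ligase of receptors, 669.01, and RHBDF2, a partner of ADAM17, 476.71. LRIG1, an inhibitor of ERBB receptors, had no peak in or near the gene. No test was made between these lists, whose genes were chosen by role and with earlier results of these data known. Their intervals describe counting error and are no test against all genes.

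**Figure D5:**
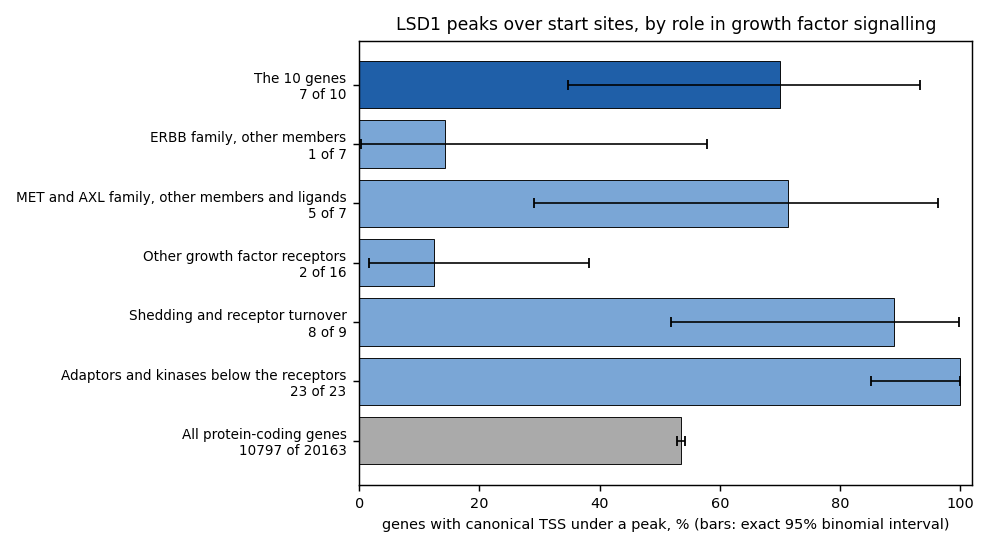
Share of genes (%) whose canonical TSS lies under a peak, for the 10 genes, 5 lists by role and all protein-coding genes, with exact 95% binomial intervals as error lines. The share is 70% for the 10 genes, 12.5% for other growth factor receptors, 100% for adaptors and kinases and 53.5% for all genes.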

How the data were processed

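The data are 1 LSD1 ChIP-seq and 1 input library of PC-3M-luc cells. Reads came from an Illumina HiSeq machine and were aligned to hg19 by bowtie 2, per the labels' protocols, and per the submitters' processing notes MACS 1.41 was among the tools. Those notes also name mm10, which was not used since the cells are human. The deposited list gives a position and a score per peak. Not given in the sources used here are the aligner and caller settings, the treatment of duplicate reads and the threshold. The lowest score was 50.

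Coordinates were made 1-based. All 24 chromosome names occur in GRCh37 and 0 peaks run past an end. The canonical TSS is that of the transcript tagged canonical in GENCODE 44 (mapped to GRCh37), otherwise the longest. Words were counted on both strands in the 200 bases at each peak midpoint and in 300 bases at promoters. The share of 32-base words found once used both strands of the reference. The members and lists were chosen with earlier results of these data known. Named genes were the 10 members, genes whose canonical TSS lies under their peaks, and in each list up to 4 with the highest-scoring start site peak and those with no peak; a gene that this rule also names is not reported here. Genes named beside them (GAS6, AREGB, RPS26, PFDN1, CCDC97) were added after their values were seen. Alternatives changed the score minimum, the distance, the transcript, the start site, the overlap, the merging of peaks, the window and the word length. The code was tested on planted peaks. Intervals were made with scipy 1.17.1, sequences read with samtools 1.23.1 and pysam 0.24.0, words counted with numba 0.67.0, tables built with pandas 2.3.3 and numpy 2.4.6 in Python 3.11.15, and figures drawn with matplotlib 3.10.9.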

Additional observations from a re-analysis of the deposited data

How the results depend on the processing

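No paired analysis was possible because the study has a single library on each side. The main results have 49 alternative values, of which 45 lay within 1.5 times the count or within the exact binomial interval of the median over genes or peaks, and 4 moved. These limits are wide and the tally depends on them. Against 22 peaks assigned, the 15 with a score of at least 100 and the 33 within 50 kb both lay within them. When only peaks scoring 206 (the median) or more were used, the 10 genes had 12 peaks, a start site peak at 4 genes and a searched word at 5 peak centres, against 22, 7 and 8, a setting that removes peaks by construction; EGFR and BTC then had no peak. Over all protein-coding genes this setting gave a start site peak to 42.4%. With 500 bases at the midpoint 14 peak centres held a searched word, a wider window for which no share over all peaks was made. Of 228 values for single genes, lists and words, 175 stayed and 53 moved. The AREG share of words found once was 7.25% with 50-base words. Leaving out peaks over the TSS of other genes was chosen after seeing the data and gave 16 peaks at 9 genes. Unknown read depth limits every absent peak.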

Other observations

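Further peaks lay between 20 and 50 kb from the genes. ERBB3 had 7 of these, with a highest score of 1239.93 at a peak over the TSS of RPS26, a protein of the small ribosomal subunit, so that its count was 12 within 50 kb. ERBB2 had 2, the higher with a score of 525.09. HBEGF had 1 (score 301.74), over the TSS of PFDN1, a prefoldin subunit, and AXL had 1 (score 630.33), over the TSS of CCDC97. EGFR, MET, TGFA, BTC, EREG and AREG had none at that distance.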
